A study of Mus musculus with 10 samples.

Results

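Genes that mark the choroid plexus were followed mouse by mouse in hippocampal CAGE libraries, in which each sequenced tag marks the capped 5′ end of a transcript. The 10 genes chosen were *Ttr*, *Aqp1*, *Kl*, *Clic6*, *Folr1*, *Kcne2*, *Enpp2*, *Slc4a5*, *Otx2* and *Prlr*, and were matched by gene symbol to a table of 15900 genes. A row was found for 6 of the 10, namely *Ttr*, *Enpp2*, *Kl*, *Clic6*, *Aqp1* and *Prlr*, while *Folr1*, *Kcne2*, *Slc4a5* and *Otx2* were not analysed here. All 6 passed the filter on low values (at least 0.1 CPM in at least 2 libraries), as did 15851 of the 15900 genes.

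Each library came from the whole hippocampus of 1 male ICR mouse, and there were 5 groups of 2 mice. The pre-SE mice are labelled untreated, and the study's methods describe control mice that received saline in place of pilocarpine (PILO). The other 8 mice received methyl scopolamine and then PILO at 290 mg/kg to induce status epilepticus (SE), which was ended with diazepam. SE 6 h and SE 2 days mice were sampled at 6 h and 2 days without levetiracetam (LEV). SE + LEV 6 h mice had received 1 oral dose of LEV at 360 mg/kg, and SE + LEV 2 days mice 5 doses. The libraries held 10540698 to 51710968 tags in the listed genes, as recovered from the CPM values. The limit of detection, set here at 3 tags, thus lay between 0.058 and 0.285 CPM (tag counts scaled by the authors to the same total of listed genes in every library). The values below are CPM, and replicates 1 and 2 are different mice.

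The choroid plexus is the epithelium that secretes cerebrospinal fluid into the brain's ventricles. Its cells form a barrier with leaky tight junctions, move water and ions from blood to fluid, and release carrier proteins into the fluid. It hangs in the lateral ventricle along the edge of the hippocampus and is a tissue of its own, but its genes are not all restricted to it, since oligodendrocytes also express *Enpp2* and hippocampal neurons *Kl*. In RNA from a whole hippocampus, fewer cells of a type and less RNA per cell cannot be told apart, and tags from attached tissue cannot be told apart from tags of the hippocampus itself.

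The 2 mice of 1 group are called mates here. In 4 of the 5 groups, 1 mouse had at least 28.1 times as much *Ttr* as its mate. *Ttr*, *Enpp2*, *Kl*, *Clic6* and *Aqp1* were highest in the same 4 libraries, which came from 4 different groups. *Prlr* did not share this order.

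*Ttr* encodes transthyretin, the carrier of thyroid hormone and of the retinol-binding protein in the cerebrospinal fluid, and is a hallmark of choroid plexus epithelium. It lies on chromosome 18 and overlaps *Gm16090* on the other strand. Replicates 1 and 2 had 5.83 and 1667.87 CPM in pre-SE mice, 4.33 and 3935.71 CPM in the SE 6 h group, and 843.42 and 29.98 CPM in SE + LEV 6 h mice. They had 55.59 and 13.52 CPM in SE 2 days mice, and 1475 and 18.89 CPM in SE + LEV 2 days mice. The values thus fell into separate ranges, 4 libraries from 843 to 3936 CPM and 6 libraries from 4.33 to 55.6 CPM, with no library between them. The higher mouse was replicate 2 in pre-SE and SE 6 h mice and replicate 1 in the SE + LEV groups, and both SE 2 days mice lay in the lower range.

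The higher pre-SE mouse had 286 times as much *Ttr* as its mate (95% interval 246 to 335), and the higher SE 6 h mouse 909 times as much (768 to 1084). The corresponding ratios were 28.1 (25.2 to 31.5) in SE + LEV 6 h mice, 4.11 (3.61 to 4.69) in SE 2 days mice and 78.1 (71.2 to 85.8) in SE + LEV 2 days mice. These are exact conditional intervals of the tag counts, and they cover counting error only. In SE 6 h replicate 2, *Ttr* took 0.394% of the tags in listed genes and ranked 6th among these genes. In SE 6 h replicate 1 it took 0.000433% of these tags and ranked 11776th. As group means, *Ttr* had 837 ± 1175 CPM (SD, n = 2) in pre-SE mice and 1970 ± 2780 CPM in SE 6 h mice. The means were 437 ± 575 CPM in SE + LEV 6 h mice, 34.6 ± 29.7 CPM in SE 2 days mice and 747 ± 1030 CPM in SE + LEV 2 days mice (SD, n = 2 each), so that the SD exceeded the mean in every group but SE 2 days.

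**Figure D1:**
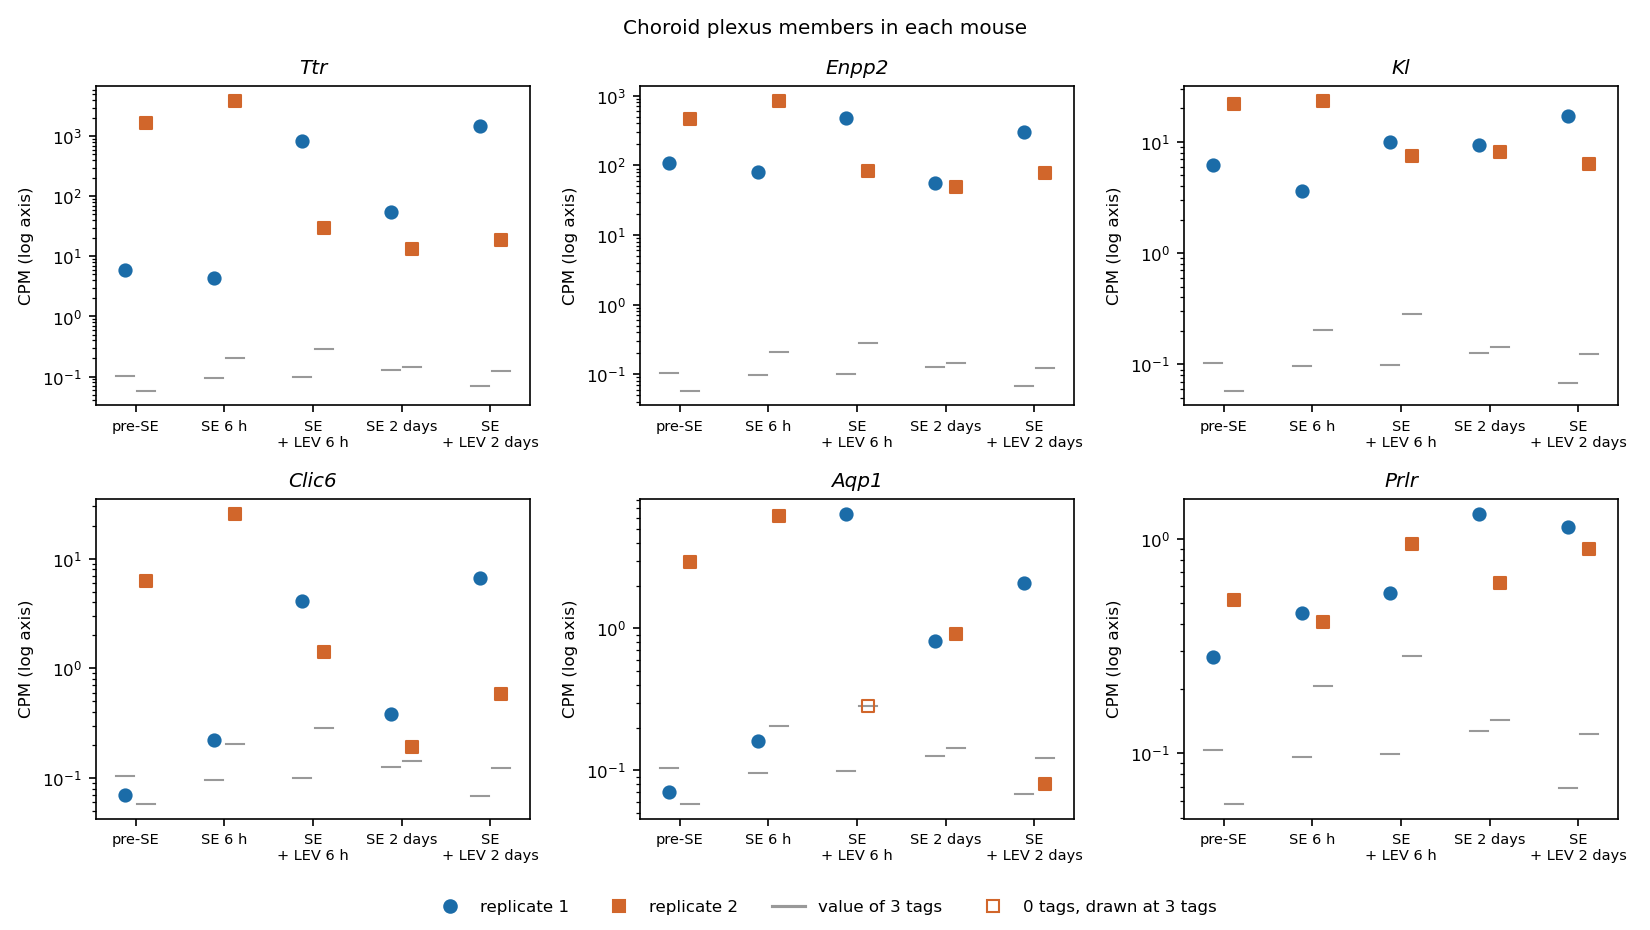
CPM of the 6 members on log axes, with 1 point for each mouse (circle, replicate 1; square, replicate 2) and grey marks at the value of 3 tags in that library. *Ttr* spans 4.33 to 3935.71 CPM, and the higher mouse is replicate 2 in the pre-SE and SE 6 h groups and replicate 1 in both SE + LEV groups.

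*Enpp2* encodes autotaxin, the secreted enzyme that makes lysophosphatidic acid (mm9, chromosome 15, 54670453 to 54751701, minus strand). Replicates 1 and 2 had 107.22 and 458.03 CPM in pre-SE mice, 79.83 and 851.82 CPM in the SE 6 h group, and 470.39 and 83.39 CPM in SE + LEV 6 h mice. They had 55.63 and 49.15 CPM in SE 2 days mice, and 303.57 and 77.3 CPM in SE + LEV 2 days mice. The higher mouse had 4.27, 10.7, 5.64 and 3.93 times as much as its mate in the pre-SE, SE 6 h, SE + LEV 6 h and SE + LEV 2 days groups, against 1.13 times (95% interval 1.04 to 1.23) in SE 2 days mice. *Enpp2* had at least 879 tags in every library, far above the limit of detection. Both SE 2 days mice were below the other 8 mice, and the summed level of the oligodendrocyte list was also lowest in these 2 mice (2165 and 3425 CPM, against 3822 to 7213 CPM in the others). The part of these cells in the *Enpp2* values was not tested.

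*Kl* encodes klotho, a co-receptor for fibroblast growth factors that the choroid plexus, the kidney and hippocampal neurons express (mm9, chromosome 5, 151755182 to 151796384, plus strand). Replicates 1 and 2 had 6.21 and 21.95 CPM in pre-SE mice, 3.66 and 23.57 CPM in the SE 6 h group, and 9.97 and 7.49 CPM in SE + LEV 6 h mice. They had 9.46 and 8.07 CPM in SE 2 days mice, and 17.26 and 6.37 CPM in SE + LEV 2 days mice. *Kl* had the narrowest range of the 5 genes that shared the order of *Ttr*, with 6.44 times between the highest and the lowest library. Its 4th and 5th libraries, SE + LEV 6 h replicate 1 at 9.97 CPM and SE 2 days replicate 1 at 9.46 CPM, were close. The ratio of SE 2 days mates was 1.17, with an interval that includes 1 (0.955 to 1.44).

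*Clic6*, a member of the chloride intracellular channel family (mm9, chromosome 16, 92485981 to 92541488, plus strand), overlaps *2410124H12Rik* on the same strand, so that tags of the genes may have been split between them. Replicates 1 and 2 had 0.07 and 6.23 CPM in pre-SE mice, 0.22 and 25.63 CPM in the SE 6 h group, and 4.12 and 1.42 CPM in SE + LEV 6 h mice. They had 0.38 and 0.19 CPM in SE 2 days mice, and 6.65 and 0.58 CPM in SE + LEV 2 days mice. The lower pre-SE value came from 2 tags, and the ratio of the pre-SE mates was 90.3 with a wide interval (24.8 to 749). In SE 6 h mice the ratio was 114 (54.9 to 286) and in SE + LEV 2 days mice 11.6 (6.78 to 21.4). It was only 2.90 (1.69 to 5.33) in SE + LEV 6 h mice. In SE 2 days mice it was 2.00, with an interval that includes 1 (0.557 to 8.88).

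*Aqp1* encodes the water channel of the apical membrane of the choroid plexus epithelium (mm9, chromosome 6, 55286426 to 55298549, plus strand). Replicates 1 and 2 had 0.07 and 2.92 CPM in pre-SE mice, 0.16 and 6.17 CPM in the SE 6 h group, and 6.41 and 0 CPM in SE + LEV 6 h mice. They had 0.81 and 0.91 CPM in SE 2 days mice, and 2.1 and 0.08 CPM in SE + LEV 2 days mice. *Aqp1* was highest in SE + LEV 6 h replicate 1, unlike *Ttr*, *Enpp2*, *Kl* and *Clic6*, which were highest in SE 6 h replicate 2. The mate of that mouse had 0 of the 10540698 tags in listed genes, which allows up to 0.285 CPM. The higher mouse thus had at least 22.5-fold more *Aqp1* (against 3 tags in the lower library). For pre-SE mates the ratio was 42.3 and for SE + LEV 2 days mates 25.6, both on 2 tags in the lower mouse (intervals 11.5 to 353 and 6.89 to 215). It was 38.5 (15.9 to 121) in SE 6 h mice and 1.13 (0.564 to 2.25) in SE 2 days mice.

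*Prlr* encodes the prolactin receptor, which the choroid plexus epithelium expresses (mm9, chromosome 15, 10106993 to 10303504, plus strand), and it overlaps *Agxt2* on the same strand. Replicates 1 and 2 had 0.28 and 0.52 CPM in pre-SE mice, 0.45 and 0.41 CPM in the SE 6 h group, and 0.56 and 0.95 CPM in SE + LEV 6 h mice. They had 1.31 and 0.62 CPM in SE 2 days mice, and 1.14 and 0.9 CPM in SE + LEV 2 days mice. These values rest on 6 to 50 tags. The largest ratio of mates was 2.12 (1.08 to 4.41) in SE 2 days mice, and the interval of the ratio included 1 in the other 4 groups. Unlike the other members, *Prlr* had only 1 of its 4 highest libraries (SE + LEV 2 days replicate 1) among those with the most *Ttr*.

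The same 4 highest libraries as for *Ttr* were found in 43 of the 15851 genes (0.271%), and the members *Ttr*, *Enpp2*, *Kl*, *Clic6* and *Aqp1* are among these 43. The 4 libraries were set by *Ttr* after its values were seen, so this is a description with no test. *Ttr* and *Kl* also shared the order within the 4 libraries, which was SE 6 h replicate 2, pre-SE replicate 2, SE + LEV 2 days replicate 1 and SE + LEV 6 h replicate 1. The SD within groups on the log2(CPM + 0.1) scale was 4.78 for *Ttr*, the second largest of all genes after that of *Gm10243* (5.32). It was 2.96 for *Aqp1* and 2.85 for *Clic6* (ranks 11 and 15), 1.62 for *Enpp2* (rank 65) and 1.12 for *Kl* (rank 243). *Prlr*, at 0.45, ranked 4732nd, with a larger SD than 70.1% of the genes. The median gene was at 0.33, and 95% of the genes lay below 0.83.

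**Figure D2:**
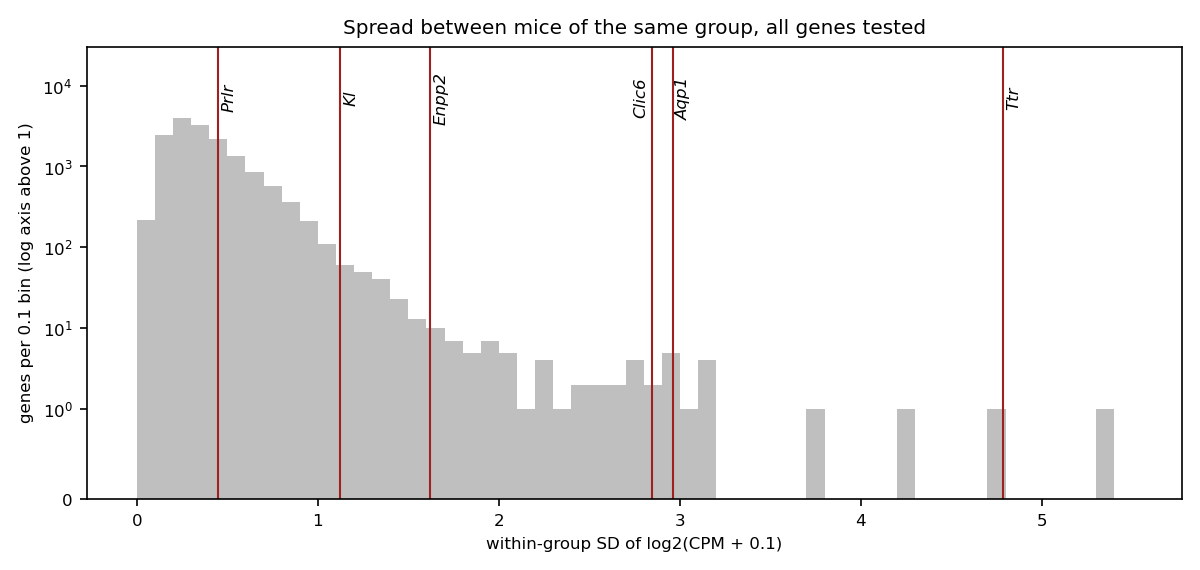
Number of genes in each 0.1-wide bin of the within-group SD of log2(CPM + 0.1) over 15851 genes (grey bars, symmetric log axis), with the 6 members as red lines. *Ttr* lies at 4.78, *Aqp1*, *Clic6*, *Enpp2* and *Kl* lie above the 95th percentile of 0.83, and *Prlr* lies at 0.45.

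The members did not differ between mates in one fixed proportion to *Ttr*. For each 1000 CPM of difference in *Ttr* between mates, *Enpp2* differed by 211 CPM in pre-SE mice, 196 CPM in SE 6 h mice, 476 CPM in SE + LEV 6 h mice and 155 CPM in SE + LEV 2 days mice. *Aqp1* differed by 1.71, 1.53, 7.88 and 1.39 CPM in the same groups, with the highest value in SE + LEV 6 h mice. *Clic6* (3.71, 6.46, 3.32 and 4.17 CPM) and *Kl* (9.47, 5.06, 3.05 and 7.48 CPM) also varied between these groups. Each of these ratios comes from 1 pair of mice and has no replicate.

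Since *Aqp1* and *Kl* shared their 4 highest libraries with *Ttr*, the 250 bases before the annotated start were read from RefSeq (GRCm38.p6, a later build than the mm9 of the files) for *Aqp1* and *Kl*, each of which has 1 entry. They are printed 5′ to 3′ in lower case, at chr6:55336049-55336298 and chr5:150952357-150952606, both on the plus strand, and capitals would mark matches to the motifs named after them.
Aqp1: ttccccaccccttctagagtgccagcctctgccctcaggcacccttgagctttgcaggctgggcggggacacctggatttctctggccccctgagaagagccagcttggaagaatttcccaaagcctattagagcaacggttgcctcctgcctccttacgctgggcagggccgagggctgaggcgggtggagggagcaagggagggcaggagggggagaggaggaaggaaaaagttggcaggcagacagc
Kl: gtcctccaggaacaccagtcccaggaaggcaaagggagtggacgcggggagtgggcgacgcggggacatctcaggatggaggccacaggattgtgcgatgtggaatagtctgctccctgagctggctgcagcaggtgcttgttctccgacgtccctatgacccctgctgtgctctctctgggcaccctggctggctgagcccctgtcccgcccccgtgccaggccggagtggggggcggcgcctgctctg

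The motifs searched on both strands were TAATCC, the core bound by OTX homeodomain proteins, and TATAAA, the TATA box. Neither was found in these windows of *Aqp1* and *Kl*. Of all 32851 promoter entries, 6.25% held TAATCC and 12.4% held TATAAA in the same 250 bases. No match says only that these letters are not in this window. *Clic6* and *Enpp2* are named only.

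The question of the study was how SE changes hippocampal gene expression and what LEV given after SE does to these changes. The members were compared between groups with limma on log2(CPM + 0.1), in 1 fit of all libraries with Benjamini-Hochberg adjustment over the 15851 genes, with calls made at an adjusted p no higher than 0.05. In each of the comparisons 0 of 6 members were called, and the lowest adjusted p was 0.26. The logFC values below are differences of group means on that log2 scale, which understates the change of low genes such as *Aqp1* and *Prlr*.

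Between SE 6 h and pre-SE mice, 0 of 6 members were called (0 at an unadjusted p under 0.05), where 2.96% of all genes were called. The groups overlapped in all 6 members, where 49.9% of all genes did not overlap. The logFC of *Ttr* was 0.41 ± 3.36 (SE, 95% interval −7.07 to 7.89), so that large differences in either direction lie within its interval. The median logFC of the members was 0.32, and that of all genes −0.13.

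Between SE 2 days and pre-SE mice, 0 of 6 members were called (0 at an unadjusted p under 0.05), where 5.66% of all genes were called. *Enpp2* was lower in both SE 2 days mice than in both pre-SE mice (logFC −2.08 ± 1.15 SE, limma adjusted p = 0.36), and *Prlr* was higher in both (logFC 1.05 ± 0.49 SE, limma adjusted p = 0.26). Groups that do not overlap were thus seen in 2 of 6 members, and in 52.0% of all genes. The logFC of *Ttr* was −1.85 ± 3.36 SE. The median logFC was −0.95 for the members and −0.03 for all genes.

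Between SE 2 days and SE 6 h mice, which share the SE mice of the comparisons above, 0 of 6 members were called (0 at an unadjusted p under 0.05), where 4.25% of all genes were called. *Enpp2* was again lower (logFC −2.32 ± 1.15 SE, limma adjusted p = 0.29) and *Prlr* higher (logFC 0.93 ± 0.49 SE, limma adjusted p = 0.32) in both SE 2 days mice. The other 4 members overlapped, and 51.1% of all genes did not. The median logFC was −1.34 for the members and 0.09 for all genes.

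Between SE + LEV 6 h and SE 6 h mice, 0 of 6 members were called (0 at an unadjusted p under 0.05), where 0.0126% of all genes were called. *Ttr* had a logFC of 0.27 ± 3.36 SE, and only *Prlr* did not overlap (logFC 0.65 ± 0.49 SE), where 29.5% of all genes did not overlap. Between SE + LEV 2 days and SE 2 days mice, 0 of 6 members were called (0 at an unadjusted p under 0.05), where 0.0% of all genes were called.

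In the latter comparison the interval of *Ttr* ran from −4.87 to 10.08 around a logFC of 2.60. *Clic6* (logFC 2.52 ± 2.03 SE) and *Enpp2* (logFC 1.55 ± 1.15 SE) were higher in both SE + LEV 2 days mice than in both SE 2 days mice, and 27.4% of all genes did not overlap in this comparison. The members' median logFC was −0.14 at 6 h and 0.91 at 2 days, and the medians of all genes were 0.04 at both times. The LEV effect at 2 days was compared with that at 6 h as an interaction, in which 0 of 6 members (0 at an unadjusted p under 0.05) and 0.0% of all genes were called. The difference was 2.33 ± 4.75 SE for *Ttr* and 1.95 ± 1.63 SE for *Enpp2*.

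Between SE + LEV 6 h and pre-SE mice, 0 of 6 members were called (0 at an unadjusted p under 0.05), where 0.322% of all genes were called, and *Prlr* alone did not overlap (logFC 0.78 ± 0.49 SE), where 42.5% of all genes did not overlap. Between SE + LEV 2 days and pre-SE mice, 0 of 6 members were called, where 2.85% of all genes were called. In the latter, *Prlr* was the 1 member at an unadjusted p under 0.05 (logFC 1.20 ± 0.49 SE, adjusted p = 0.37 by limma) and the 1 member without overlap, where 40.1% of all genes did not overlap. *Ttr* had a logFC of 0.68 ± 3.36 SE at 6 h and 0.75 ± 3.36 SE at 2 days against pre-SE. These comparisons share the pre-SE mice with those of SE alone.

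**Figure D3:**
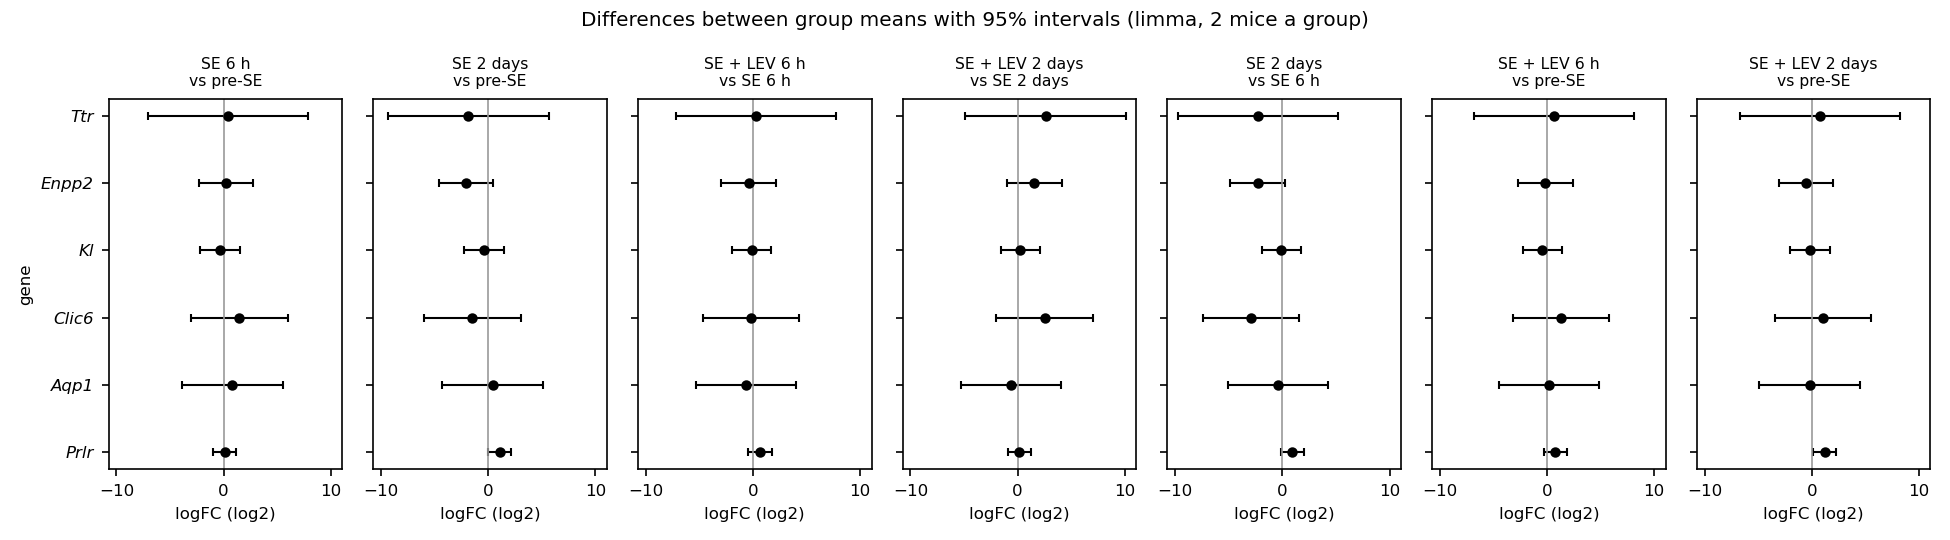
logFC of each member (points) with its 95% interval from limma (bars) in 7 comparisons of 2 mice against 2, on a shared linear axis. The intervals of *Ttr* are the widest, for example −4.87 to 10.08 between SE + LEV 2 days and SE 2 days mice, and the 1 interval that lies wholly above 0 is that of *Prlr* between SE + LEV 2 days and pre-SE mice (0.12 to 2.28).

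Because the libraries fell into separate ranges of *Ttr*, no correlation was computed over all 10, and the relation was computed only within the 6 libraries under 60 CPM of *Ttr*, a boundary set after its values were seen. Of 5 members, *Prlr* was correlated with *Ttr* there (Pearson r = 0.93, two-sided exact permutation p = 0.0069, adjusted p = 0.035, n = 6). The Spearman coefficient was 0.94, with an exact permutation p of 0.017 that did not pass after adjustment (0.083). Without the 2 libraries farthest from the median of *Ttr*, r was 0.97 over 4 libraries. The 6 libraries come from all 5 groups, so that group and *Ttr* level cannot be told apart in this relation, and it was lost under several settings given in the closing section. *Kl* (r = 0.83, exact permutation adjusted p = 0.080) had an r of 0.47 without the 2 farthest libraries. *Clic6* (r = 0.65), *Aqp1* (r = 0.25) and *Enpp2* (r = −0.49) had adjusted p-values of 0.25, 0.61 and 0.41 by the exact permutation test over 5 relations. The corresponding rho values were 0.83 for *Kl*, 0.66 for *Clic6*, −0.03 for *Aqp1* and −0.31 for *Enpp2*. Without the 2 farthest libraries, r was 0.96 for *Clic6*, close to that of *Prlr*, −0.24 for *Aqp1* and −0.31 for *Enpp2*.

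A list of 17 further choroid plexus genes had 10 with a row, and 6 of these 10 had the same 4 highest libraries as *Ttr*, against 0.271% of all genes. They were *Kcnj13*, a potassium channel of the epithelium, *Cldn2*, a claudin of leaky tight junctions, *Sostdc1*, a secreted antagonist of BMP and Wnt signals, *Calml4*, *1500015O10Rik* and *Trpv4*, a cation channel. The list was chosen with earlier results of these data known, and the 4 libraries were set by *Ttr*. This count is therefore a description with no test. *Kcnj13* in replicates 1 and 2 had 0.45 and 13.54 CPM in pre-SE mice, 0.51 and 39.67 CPM in SE 6 h mice, 11.23 and 2.37 CPM in SE + LEV 6 h mice, 2.42 and 1.24 CPM in SE 2 days mice, and 7.96 and 1.15 CPM in SE + LEV 2 days mice. *Calml4* had 9.8 to 31.79 CPM in the 4 libraries and 1.41 to 3.98 CPM in the other 6, and *1500015O10Rik* 7.51 to 40.36 CPM and 0.83 to 2.05 CPM.

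The other 4 measured genes of that list had another order. *Car12*, a carbonic anhydrase and the gene of this list with the highest mean, was highest in SE 2 days replicate 1 (62.79 CPM), a mouse with 55.59 CPM of *Ttr*. *Msx1*, *Steap1* and *Abca4* also departed from the order of *Ttr*, and *Abca4* was at 0 in 3 libraries. In each of the 8 comparisons 0 of the 10 genes were called by limma, where 0.0% to 5.66% of all genes were called. The summed level of the list ran from 24.4 to 192 CPM, and that of the members from 72.5 to 4843 CPM.

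The 5 genes most like the members were found by the Pearson r over the 10 libraries between log2(CPM + 0.1) of each of 14216 genes with a mean of at least 1 CPM and the mean profile of the 6 members. They were *Kcnj13* (r = 0.98), *Calml4* (0.98), *1500015O10Rik* (0.97), *Ace* (0.96), which encodes angiotensin-converting enzyme, and *Col8a2* (0.96), which encodes a collagen chain. The first 3 of them were also in the further list. This is a ranking over libraries that fall into separate ranges, and it has no test. *Ace* in replicates 1 and 2 had 8.21 and 44.27 CPM in pre-SE mice, 10.94 and 76.67 CPM in SE 6 h mice, 34.66 and 16.41 CPM in SE + LEV 6 h mice, 24.42 and 18.2 CPM in SE 2 days mice, and 64.54 and 10.68 CPM in SE + LEV 2 days mice.

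**Figure D4:**
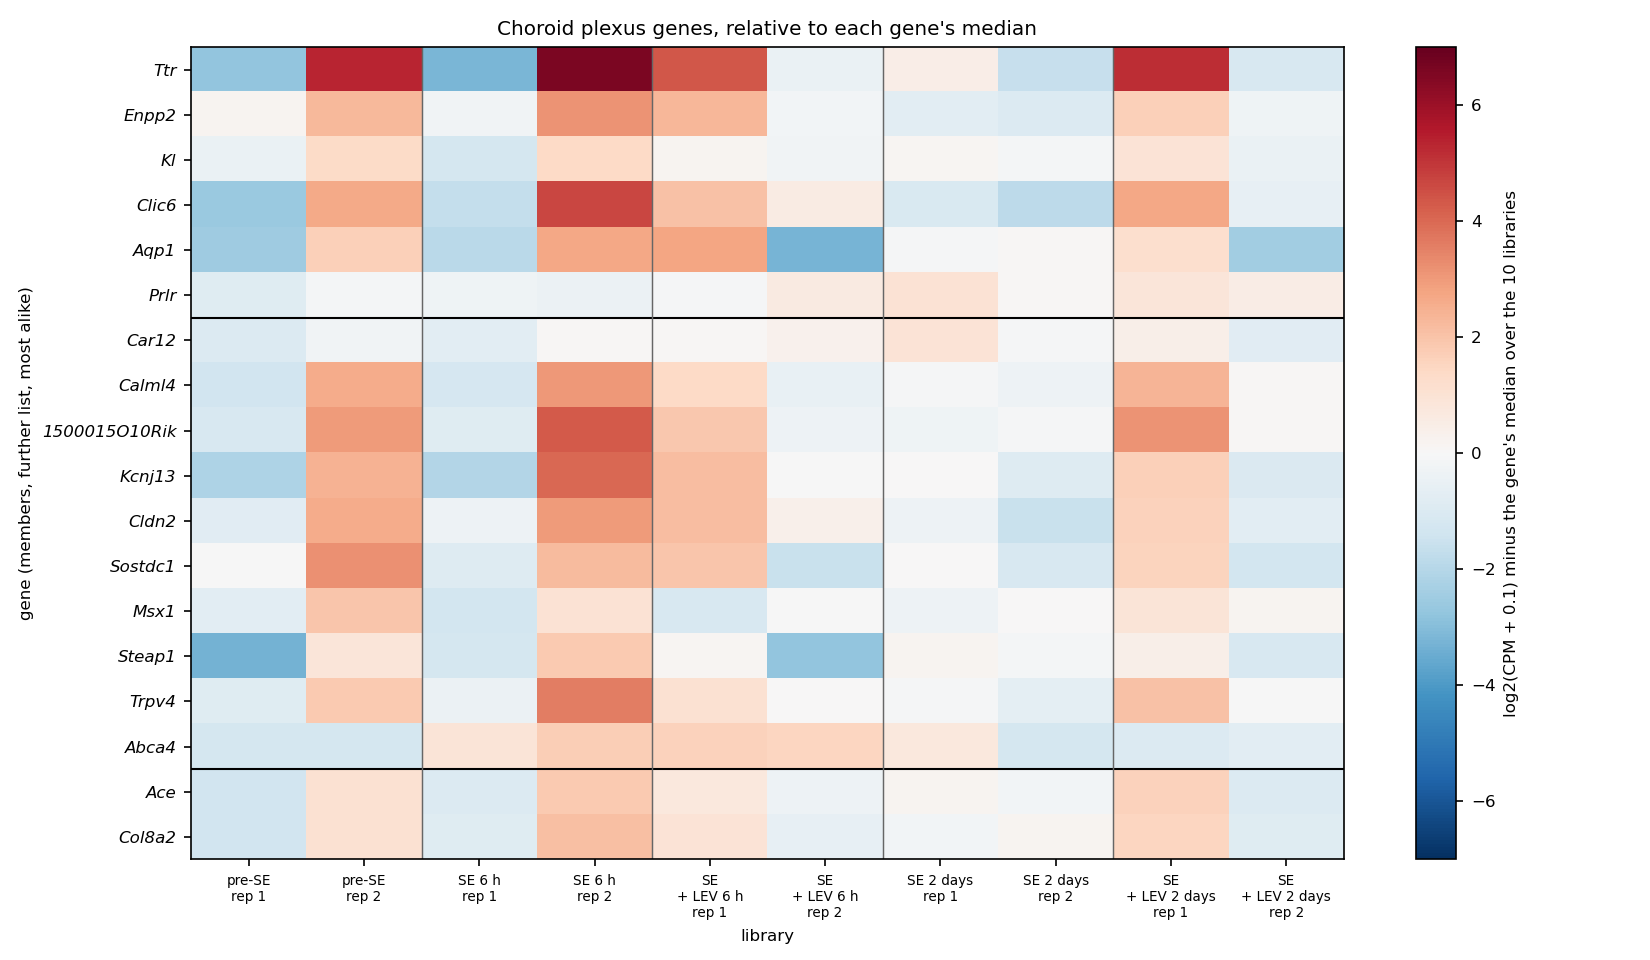
log2(CPM + 0.1) minus each gene's median over the 10 libraries (colour), for the 6 members (top block), the 10 measured genes of the further list (middle block) and *Ace* and *Col8a2* (bottom block), with libraries as columns. The columns of pre-SE replicate 2, SE 6 h replicate 2, SE + LEV 6 h replicate 1 and SE + LEV 2 days replicate 1 are red in most rows, and *Prlr*, *Car12* and *Abca4* depart from this.

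Markers of other cell types and neighbouring tissues were given beside these values. Of the ependymal list, which marks the ciliated lining of the ventricle, 2 of 12 measured genes (*Dynlrb2* and *Mia1*) had the same 4 highest libraries as *Ttr*, and its summed level ran from 49.3 to 130 CPM. In each of the 4 groups whose mates lay in separate ranges of *Ttr*, this sum was higher in the mouse with more *Ttr* (102 against 59.2 CPM in pre-SE mice, 91.1 against 49.3 CPM in SE 6 h mice, 80.4 against 73.7 CPM in SE + LEV 6 h mice and 130 against 99.6 CPM in SE + LEV 2 days mice). Its most abundant genes did not have the same 4 highest libraries as *Ttr*. *Rarres2* (8.5 to 31.71 CPM) was higher in the mouse with more *Ttr* in all 4 of these groups, and *Rsph1* (13.5 to 44.65 CPM) in all but SE 6 h mice. *Fam183b* (4.62 to 13.48 CPM) was higher in that mouse in all but SE + LEV 6 h mice. The meningeal list had 0 of 14 such genes, and its sum (710 to 3414 CPM) was highest in both SE + LEV 6 h mice, of which 1 had 843.42 and the other 29.98 CPM of *Ttr*. Of that sum, *Ptgds*, which the choroid plexus and oligodendrocytes also express, made up 618.05 to 3115.75 CPM, followed by *Dcn* (42.03 to 86.81 CPM) and *Col1a1* (5.38 to 67.63 CPM). In the same 4 groups, the meningeal sum was also higher in the mouse with more *Ttr*, except in SE + LEV 2 days mice (985.84 against 1320.77 CPM). The oligodendrocyte sum had the same exception (4014.96 against 5215.29 CPM). For the thalamus and endothelium sums, given below, the only exception was pre-SE mice (78.92 against 79.73 and 171.92 against 182.66 CPM).

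None of the 8 measured thalamus and habenula genes had the same 4 highest libraries, and their sum ran only from 68.4 to 115 CPM. The most abundant were *Tcf7l2* (12.76 to 35.88 CPM), *Prkcd* (14.5 to 25.76 CPM) and *Rgs16* (9.12 to 52.44 CPM). The same count was 0 of 11 for oligodendrocytes (2165 to 7213 CPM in sum, with *Mbp* as the most abundant gene), 0 of 9 for endothelium (172 to 407 CPM, led by *Slc2a1*, *Flt1* and *Cldn5*) and 0 of 2 for red blood cells (2.79 to 23.8 CPM, *Hbb-b1* and *Hbb-b2*, near-identical copies between which tags may be split). The part of these cells in the members' values was not tested.

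Beside the tissue label, 11 genes of hippocampal neurons were measured, of which 0 had the same 4 highest libraries. *Slc17a7*, the vesicular glutamate transporter of these neurons, had 416.82 to 1580.81 CPM, *Wfs1* 129.13 to 303.58 CPM and *Neurod6* 48.38 to 223.58 CPM, so that every library held tags of these abundant genes. *Tdo2*, of the same list, was at 0 CPM in SE + LEV 6 h replicate 2 and SE + LEV 2 days replicate 1. Whether neighbouring tissue was present was not tested with this list. Over the 8 comparisons, in each of which 0.0% to 5.66% of all genes were called, limma called 0 choroid plexus, ependymal, thalamus and oligodendrocyte genes. It called *Cdh5* of the endothelium 2 times, *Col1a2* of the meningeal list 1 time, *Fibcd1* and *Tdo2* of the hippocampal list 1 time each, *Hbb-b1* 2 times and *Hbb-b2* 1 time. *Cdh5*, the vascular cadherin, rose by a logFC of 2.10 ± 0.30 SE between pre-SE and SE 6 h mice (limma adjusted p = 0.0061), with mates that differed by far less than those of *Ttr* (4.41 and 4.06 CPM in pre-SE mice, 17.58 and 19.46 CPM in SE 6 h mice). *Fibcd1* (logFC −2.02) and *Tdo2* (logFC −4.99) fell in SE 2 days mice against pre-SE mice (limma adjusted p = 0.045 and 0.040).

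**Figure D5:**
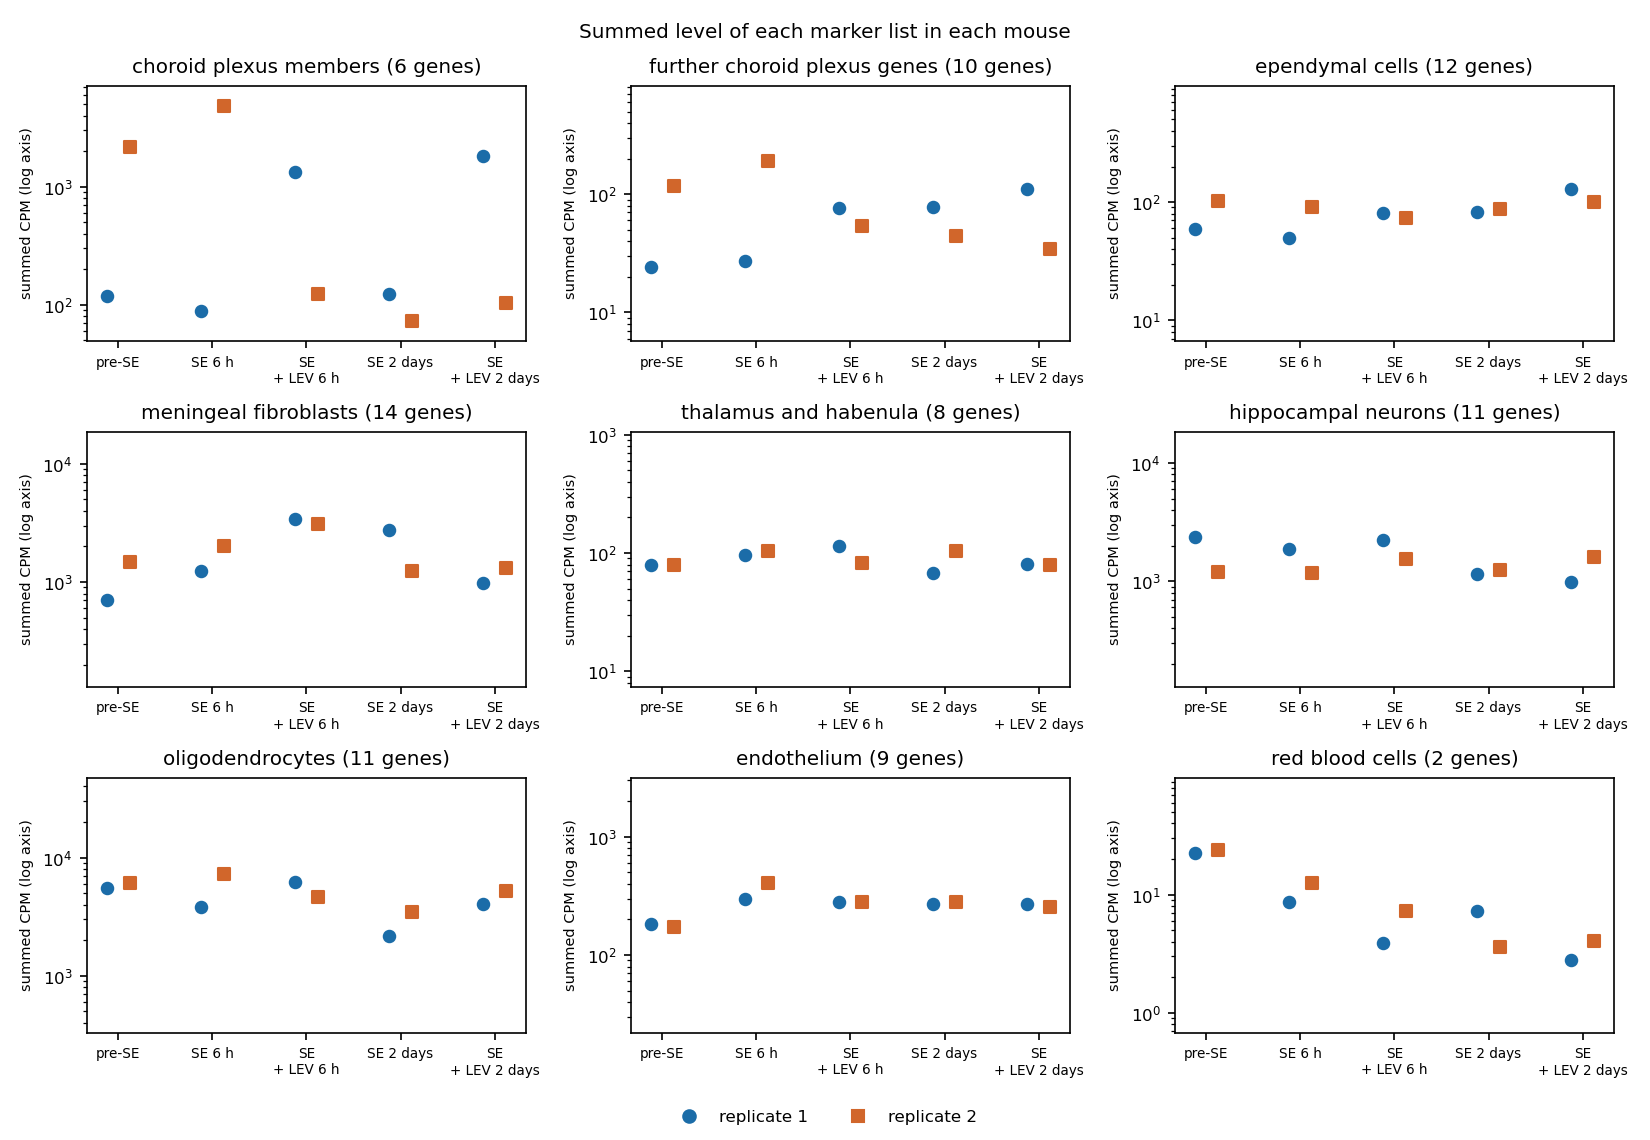
Summed CPM of the measured genes of each list in each mouse, on log axes that span the same ratio in every panel (circle, replicate 1; square, replicate 2). The sum of the members runs from 72.5 to 4843 CPM and that of the further choroid plexus genes from 24.4 to 192 CPM, while the thalamus and habenula sum runs from 68.4 to 115 CPM.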

How the data were processed

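Total RNA of whole hippocampi was made into CAGE libraries. Mapping by the authors was to mm9, first with BWA 0.7.17 and for the remaining tags with HISAT2 2.0.5, and tag clusters came from RECLU, where those under 0.1 CPM were dropped. The deposited values are CPM with 2 decimals, 1 column for each mouse. Their methods also name filters on agreement between replicates. How clusters were summed to genes, and whether strand was used, is not given in the sources used here. All 15900 identifiers matched the annotation.

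The members and lists were chosen with earlier results of these data known, and *Ttr* and the mates' values had been seen before ratios, SD ranks and shared highest libraries were computed. Tag totals were recovered as the smallest total for which every CPM value was a whole number of tags within 0.005 CPM, and were used for depth and counting intervals only. As 1 tag was worth only 0.019 to 0.095 CPM and values are rounded, a second check accepted whole tags in a minority of the libraries, so tag numbers and intervals are estimates, and no count model was run. The tests between groups used limma (3.58.1, under R 4.3.3) with log2(CPM + 0.1) as the response, two-sided, with a mean-variance trend, a mean for each group and 15851 genes, and the fit was tested on simulated data. The labels name no batch. Named genes were the members, the called and the 3 most abundant genes of each list, and the 5 genes most like the members. An item that falls under this rule is not reported here. Other genes are named as overlapping genes, for a shared order of libraries or for the largest SD, and were chosen after their values were seen. The correlation with *Ttr* had been planned over all 10 libraries and was restricted to those under 60 CPM once the separate ranges were seen. Alternatives were pseudocounts of 0.01 and 1, no filter, a filter at 1 CPM (2 or more libraries), rescaling by median of ratios, the replicate number as a block, and each mouse left out. Python 3.11.15, pandas 2.3.3, SciPy 1.17.1 and matplotlib 3.10.9 were used.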

Additional observations from a re-analysis of the deposited data

How the results depend on the processing

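With each mouse left out in turn and under the other 6 settings, 0 members were called in each of the 8 comparisons, and the lowest adjusted p was 0.14. The direction of the logFC was less stable: of 30 values (6 members in 5 comparisons), 23 changed sign when 1 mouse was left out and 7 kept it, as *Enpp2* and *Prlr* did for SE 2 days against pre-SE and against SE 6 h. For SE 6 h against pre-SE, the values ran from −4.49 to 5.31 for *Ttr*, −1.46 to 3.13 for *Aqp1*, −1.65 to 1.005 for *Kl*, −1.70 to 4.63 for *Clic6*, −1.47 to 1.94 for *Enpp2* and −0.23 to 0.48 for *Prlr*. For SE 2 days against pre-SE, the values ran from −5.92 to 2.22 for *Ttr*, −1.66 to 2.50 for *Aqp1*, −1.32 to 0.49 for *Kl* and −4.08 to 1.13 for *Clic6*. For SE + LEV 6 h against SE 6 h, the values ran from −4.63 to 5.17 for *Ttr*, −3.67 to 2.35 for *Aqp1*, −1.44 to 1.22 for *Kl*, −3.34 to 2.98 for *Clic6* and −2.10 to 1.31 for *Enpp2*. For SE + LEV 2 days against SE 2 days, the values ran from −0.54 to 5.74 for *Ttr*, −2.41 to 1.20 for *Aqp1*, −0.45 to 0.97 for *Kl* and −0.34 to 0.63 for *Prlr*. For SE 2 days against SE 6 h, the values ran from −7.16 to 2.64 for *Ttr*, −2.71 to 1.88 for *Aqp1*, −1.42 to 1.23 for *Kl* and −6.11 to 0.22 for *Clic6*. For *Ttr* in SE 6 h against pre-SE mice, the lowest value was without SE 6 h replicate 2 and the highest without SE 6 h replicate 1. Where 1 mouse was left in a group, it was assumed to vary like the other groups. *Aqp1* in SE 2 days against pre-SE mice had −0.14 with a pseudocount of 1, and *Clic6* in SE + LEV 6 h against SE 6 h mice 0.0011 with a pseudocount of 0.01. Median-of-ratios rescaling moved the median of all genes by 0.13 between SE 6 h and pre-SE mice. The 1 member correlated with *Ttr* (*Prlr*) became 0 with this rescaling and 0 with the replicate block (lowest adjusted p 0.056 by exact permutation in both), and 0 to 1 with a mouse left out, being lost in the runs without SE + LEV 6 h replicate 2, SE 2 days replicate 1, SE 2 days replicate 2 and SE + LEV 2 days replicate 2 (adjusted p 0.17, 0.17, 0.063 and 0.13, where 5 libraries remain). In the runs without pre-SE replicate 1 and without SE 6 h replicate 1, 1 member stayed correlated. With 5 libraries few orders can be permuted, so that a call can be lost through their number alone. The replicate numbers name different mice. For mice with the same number, the deviations from their group means were correlated over all genes. This correlation ran from −0.44 (pre-SE with SE + LEV 2 days) to 0.34 (pre-SE with SE 6 h) over the pairs of groups. Its direction thus differed between pairs of groups, and its source was not tested. The block changed no other call. edgeR and DESeq2 on recovered tags were planned and not run, since whole tags were not accepted in all libraries by a second check. With 2 mice a group and mates that differ up to 909-fold, the intervals of *Ttr* span over 14 log2 units.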

Other observations

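Among the 43 genes with the same 4 highest libraries as *Ttr*, 5 were members, 8 were in another list and 30 were in no list. In 13 of the 43, the lowest of the 4 libraries was at least 2 times the highest of the other 6. Of these 13, *Krt18*, a keratin of simple epithelia, *Cox8b*, a subunit of cytochrome c oxidase, and *Ccdc135* were in no list. *Krt18* had at least 1.2 CPM in the 4 libraries and at most 0.38 CPM in the others, *Cox8b* at least 5.52 and at most 1.9 CPM, and *Ccdc135* at least 2.48 and at most 0.99 CPM. The 43 genes were found by the order of *Ttr*, so these values are a description.

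*Slc17a7*, the most abundant gene of the hippocampal neuron list, was lower in the mouse with more *Ttr* in 3 of the 4 groups whose mates lay in separate ranges of *Ttr*. It had 1580.81 and 518.71 CPM in pre-SE replicates 1 and 2, 1276.19 and 516.56 CPM in SE 6 h replicates 1 and 2, and 416.82 and 952.73 CPM in SE + LEV 2 days replicates 1 and 2. In SE + LEV 6 h mice it was higher in the mouse with more *Ttr* (1446.35 against 931.63 CPM). The summed level of that list followed the same pattern (2388 and 1199 CPM, 1871 and 1176 CPM, and 982.5 and 1598 CPM in replicates 1 and 2 of the same 3 groups, and 2218 and 1551 CPM in SE + LEV 6 h mice). *Slc17a7* itself made up a large part of this sum, so the sum is not a separate observation. It gave 1580.81 of 2388 CPM in pre-SE replicate 1 and 416.82 of 982.5 CPM in SE + LEV 2 days replicate 1. *Fibcd1* of the list went the same way as *Slc17a7* in all 4 groups, by little in SE + LEV 2 days mice (31 against 32.9 CPM). *Neurod6* and *Tdo2* departed only in SE 6 h mice, being higher in the mouse with more *Ttr* (72.9 against 67.1 and 2.06 against 1.38 CPM). *Wfs1* went the same way only in pre-SE mice. It was higher in the mouse with more *Ttr* in SE 6 h mice (134.64 against 129.13 CPM) and SE + LEV 2 days mice (159.29 against 130.49 CPM). In SE + LEV 6 h mice it was lower there (166.23 against 170.86 CPM). *Ttr* itself took at most 0.394% of the tags of a library, which is the share of this gene alone and not of attached tissue. The relation was not tested.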
